A study of Mus musculus with 14 samples.

Results

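Expression of 8 genes of the JAK-STAT pathway was followed in mouse primordial germ cells, from which eggs and sperm descend: the transcription factors Stat2, Stat3, Stat4, Stat5a, Stat5b and Stat6, and the receptor genes Il6st (gp130) and Lifr. The members were the probe sets to which the platform annotation gave exactly 1 of these symbols. They numbered 20 of the 45101 probe sets on the array, and stood for 8 of the 18193 genes measured. Stat4 was selected on its fall over these days, so its values are given as a description and without a test.

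The data were 14 Affymetrix arrays in 7 groups, each with 2 biological replicates. Cells of embryonic days (E) 9.5, 10.5 and 11.5 were not sexed, and those of E12.5 and E13.5 were divided into female and male. Embryos of E10.5 to E13.5 came from BDF1 females crossed with stella-EGFP transgenic males of a B6/CBA mixed background. Their genital ridges were trypsinized, and the germ cells were sorted on the fluorescence of the reporter, which is driven by stella (Dppa3), a germ cell gene. The 2 arrays of replicate 1 at E12.5 carry no strain label. E9.5 cells came from C57BL/6 embryos of an earlier study, with another RNA kit and 22 instead of 12 PCR cycles, and no sort is described for them. Age therefore cannot be told apart from strain and preparation in the comparison of E10.5 with E9.5. Each sample was 5 ng of RNA, the equivalent of 500 cells. The number of embryos behind a sample is not stated in the labels. The p-values measure the spread between these samples.

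Cytokines of the interleukin 6 family signal through gp130, which pairs with LIFR to form the receptor for leukaemia inhibitory factor (LIF). Receptor-bound Janus kinases phosphorylate STAT proteins, which then dimerize, enter the nucleus and bind DNA, while SOCS proteins and phosphatases damp the signal. LIF acting through gp130 and STAT3 sustains mouse embryonic stem cells in culture and supports primordial germ cells in culture. STAT4 is best known from lymphocytes, where interleukin 12 activates it.

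The sequences just upstream of the Stat4, Il6st and Lifr starts are shown because Stat4 had by far the widest range of signal among the members, while the receptor genes kept high signals on every array. They are the 250 bases before a RefSeq start (GRCm38.p6), read 5′ to 3′ on the gene's strand, with each CpG in capitals. Stat4 lies at chr1:51986898-51987147 on the plus strand, Il6st at chr13:112463820-112464069 on the plus strand and Lifr at chr15:7129322-7129571 on the plus strand.
Stat4: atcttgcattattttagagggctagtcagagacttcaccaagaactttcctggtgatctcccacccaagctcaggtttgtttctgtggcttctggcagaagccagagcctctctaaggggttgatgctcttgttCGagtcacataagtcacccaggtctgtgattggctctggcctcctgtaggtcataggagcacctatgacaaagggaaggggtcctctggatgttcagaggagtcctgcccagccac
Il6st: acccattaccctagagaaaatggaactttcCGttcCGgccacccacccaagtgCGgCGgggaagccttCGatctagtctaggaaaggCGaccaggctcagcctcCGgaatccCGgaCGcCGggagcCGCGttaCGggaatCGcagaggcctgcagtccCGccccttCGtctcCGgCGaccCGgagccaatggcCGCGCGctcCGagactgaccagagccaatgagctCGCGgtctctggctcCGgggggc
Lifr: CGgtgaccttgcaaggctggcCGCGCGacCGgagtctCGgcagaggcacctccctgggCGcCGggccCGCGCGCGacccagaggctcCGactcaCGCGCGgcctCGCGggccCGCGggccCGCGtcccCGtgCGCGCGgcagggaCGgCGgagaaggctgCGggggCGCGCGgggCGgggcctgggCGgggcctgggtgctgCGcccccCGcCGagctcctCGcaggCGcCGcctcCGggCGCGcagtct
The Stat4 window holds 1 CpG, the Il6st window 26 and the Lifr window 43, against a median of 6 over 32851 such windows. A second Stat4 start has 3 CpGs and a second Lifr start also has 3. The other members ranged widely: 14 CpGs for Stat2, 13 for Stat3, 6 for Stat6, 5 and 21 for the Stat5a starts and 40 and 5 for the Stat5b starts. The motif TTCNNNGAA, the palindromic core that STAT dimers bind, reads alike on both strands and occurs in 0 of the 12 member windows and in 7.02% of all windows. These counts describe the letters, since neither methylation nor binding was measured on the arrays. Stat5b, Stat5a and Stat3 are consecutive protein-coding genes on chromosome 11, Stat2 and Stat6 are on chromosome 10, and Lifr neighbours Osmr on chromosome 15.

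Values are log2 signals of probe sets, and a difference of 1 is a 2-fold difference of signal. A signal below 4.72, the median of the whole table, is called dim. Array medians ran from 4.66 to 4.80 and the number of arrays limits the precision. The germ cell genes Dppa3 and Pou5f1 were bright on all arrays, at 13.09 to 13.76 and 12.44 to 13.09. The later gene Dazl averaged 4.71 at E9.5 and 9.07 at E10.5. From E10.5 on, high Dppa3 follows from the sort on its reporter, and these values do not measure purity. The log2 signal of the 3′ Gapdh control stood 3.09 (females) and 3.16 (males) above the 5′ control in replicate 2 of E13.5, and at most 2.53 above it on the other arrays. In replicate 1 of E13.5 it stood 1.23 (females) and 1.57 (males) above, and at E10.5 0.44 and 1.38. The part of this control difference in the comparisons of E13.5 with E10.5 was not tested. The E10.5 replicates were the least alike across genes. In bulk samples, fewer cells of a type and less RNA per cell cannot be told apart.

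Of the 8 members, 7 had several probe sets, and each gene is represented by the probe set with the highest mean. All 8 of these had a mean above the table median, whereas 9 of the 20 probe sets had a mean below it. Signals of different probe sets are not compared as amounts of transcript.

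**Figure D1:**
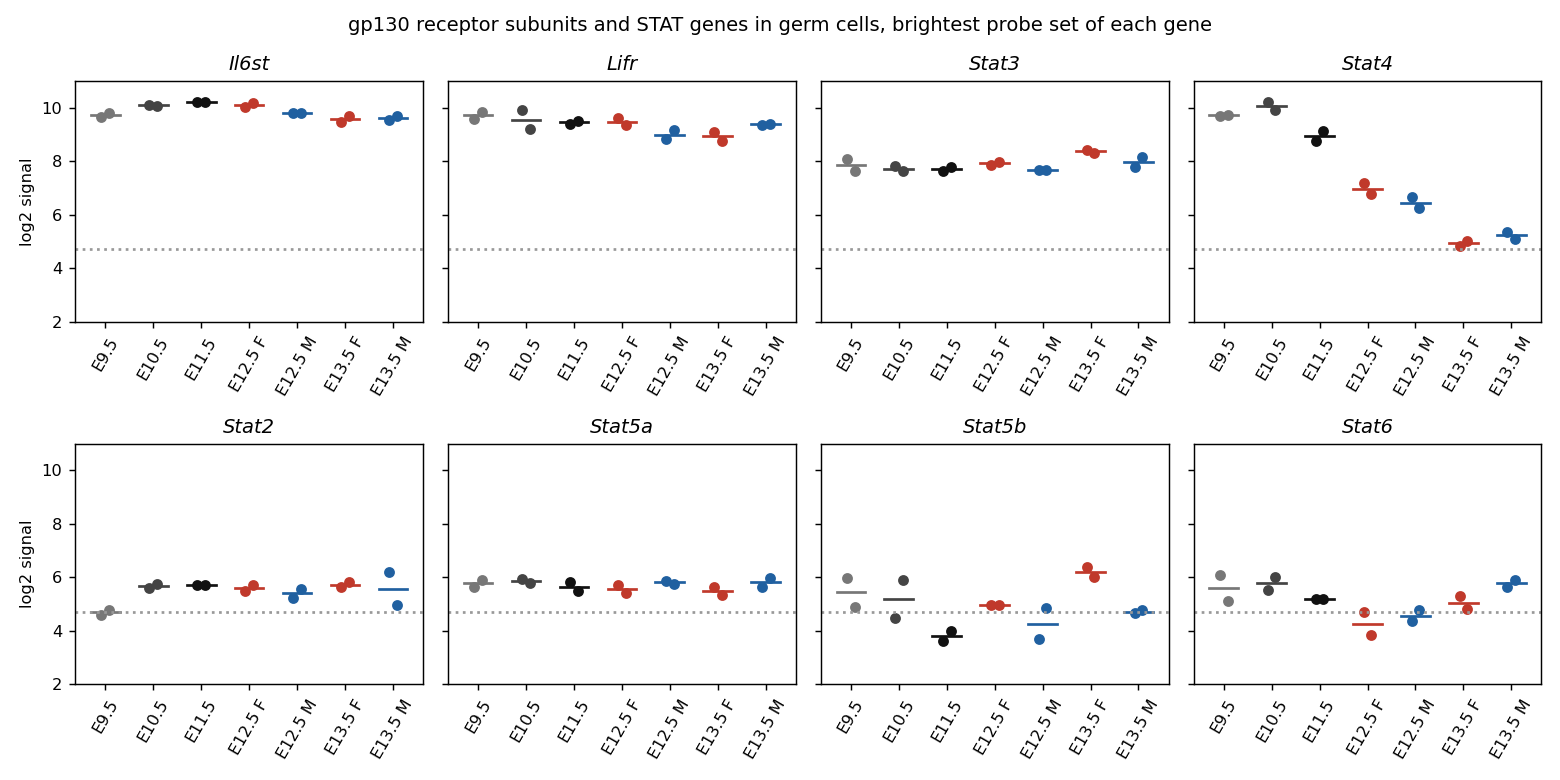
Log2 signal (vertical axis) of the brightest probe set of each of the 8 members, 1 panel per gene, on the 14 arrays (points) by group (horizontal axis, F for female and M for male). Short bars are group means and the dotted line is the table median of 4.72. Stat4 fell from between 9.90 and 10.20 at E10.5 to between 4.83 and 5.36 at E13.5, while the group means of Il6st spanned 0.62 and those of Lifr 0.80.

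Il6st, which encodes the signalling subunit gp130, was bright in every group and its group means spanned 0.62 log2 units. Its signals were 9.65 and 9.80 at E9.5, 10.11 and 10.07 at E10.5, 10.20 and 10.23 at E11.5, 10.04 and 10.18 in E12.5 females, 9.82 and 9.79 in males of that age, 9.48 and 9.71 in E13.5 females, and 9.56 and 9.70 in males of that age. All 4 arrays of E13.5 lay below all 4 of E10.5 and E11.5. Against E10.5, the difference was -0.50 in E13.5 females (95% interval -0.86 to -0.13, limma, Benjamini-Hochberg adjusted p = 0.0646). In E13.5 males it was -0.46 (95% interval -0.83 to -0.09, adjusted p = 0.105). Neither passed the threshold of 0.05. The female difference did pass with quantile normalization (-0.64, adjusted p = 0.0349), with median centring of the arrays (adjusted p = 0.0409), with dim genes left out of the test (adjusted p = 0.0466) and with low values raised to a floor at the 25th percentile of the table (adjusted p = 0.0122). The male difference passed with that floor (adjusted p = 0.0217). The other 3 Il6st probe sets read between 2.34 and 5.24 and none of them passed a test.

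Lifr, the LIF-binding partner of gp130, was likewise bright on all arrays. It read 9.59 and 9.86 at E9.5, 9.90 and 9.21 at E10.5, 9.40 and 9.52 at E11.5, 9.61 and 9.35 in E12.5 females, 8.82 and 9.17 in males of that age, 9.10 and 8.76 in E13.5 females, and 9.37 and 9.38 in males of that age. E12.5 males lay below E12.5 females, and at E13.5 the order of the sexes was turned in this probe set. It was not turned in the second Lifr probe set, which lay above the table median on all 14 arrays: males minus females was -0.53 at E12.5 and -0.06 at E13.5. In the third it was -0.06 and 0.08. From E12.5 to E13.5 the female mean went from 9.48 to 8.93 and the male mean from 9.0 to 9.38. The change of the sex difference was 0.93 (95% interval 0.15 to 1.72), and it did not pass over all genes (limma, adjusted p = 0.551). E13.5 females were 0.63 below E10.5 (adjusted p = 0.122), with E10.5 replicates that differed by more than this, while the second probe set had a difference of 0 and the third of -0.33. The size of the difference depended on which E10.5 array was kept, since these read 9.90 and 9.21 beside the E13.5 female mean of 8.93. Without replicate 2, the lower E10.5 array was lost and the Lifr difference was -0.97. With quantile normalization of all arrays the Lifr difference was -0.78 with an adjusted p of 0.0314.

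Stat3, the main STAT downstream of gp130, was steady except in E13.5 females, where it read highest. Its signals were 8.10 and 7.63 at E9.5, 7.81 and 7.64 at E10.5, 7.64 and 7.80 at E11.5, 7.86 and 7.99 in E12.5 females, 7.68 and 7.67 in males of that age, 8.41 and 8.32 in E13.5 females, and 7.79 and 8.15 in males of that age. Both E13.5 female arrays exceeded all other 12 arrays. Against E10.5 the female difference was 0.64 (SE 0.20, 95% interval 0.19 to 1.09), just short of the threshold (limma, adjusted p = 0.0517). It passed when dim genes were left out of the test (adjusted p = 0.0314) and with the same floor (adjusted p = 0.0202). The other Stat3 probe sets did not show a rise of this size. The second also had its highest group mean in E13.5 females, 6.07 beside 5.97 at E10.5, with overlapping arrays. The third averaged 4.64 in E13.5 females and 4.43 at E10.5, and was highest at E9.5. The dimmest probe set read 3.48 and 3.76 at E10.5, and 2.84 and 1.22 in E13.5 females, the opposite direction at dim levels.

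**Figure D2:**
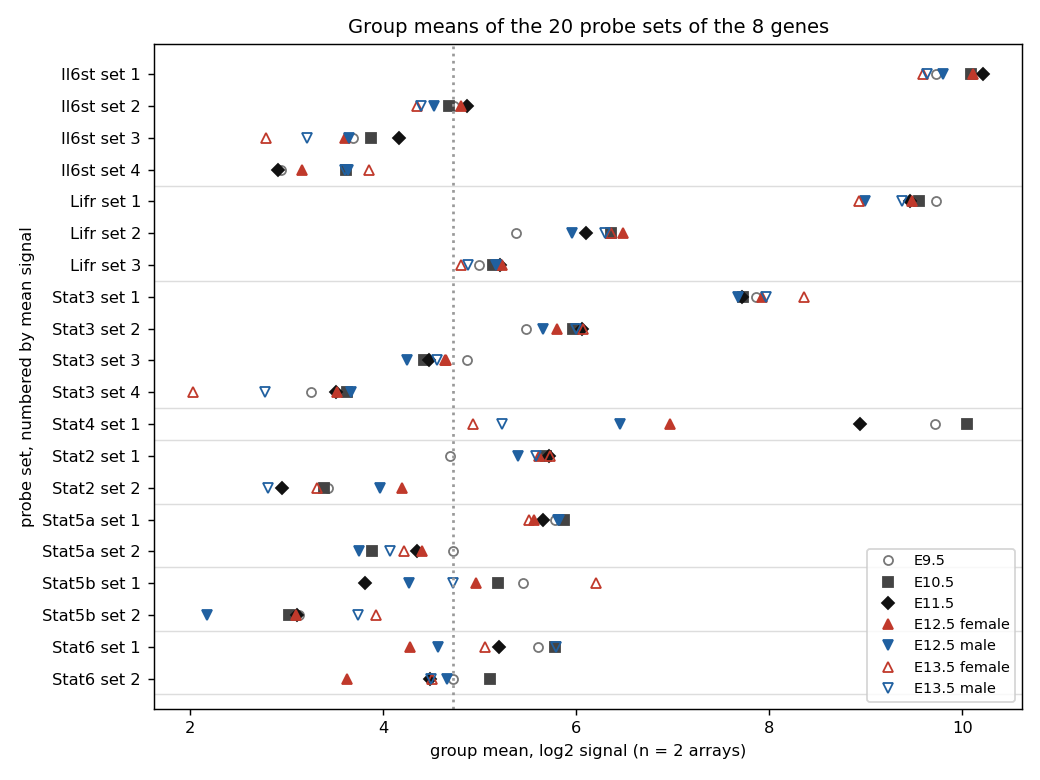
Group means of log2 signal (horizontal axis, 2 arrays each) for all 20 probe sets of the 8 genes (vertical axis, numbered by mean signal within a gene), with a symbol for each group and the table median of 4.72 as a dotted line. In E13.5 females the brightest Stat3 probe set has its highest group mean, 8.37, and the dimmest its lowest, 2.03.

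Stat4, the STAT of interleukin 12 signalling, was bright in early germ cells and fell to near the table median by E13.5. It read 9.71 and 9.72 at E9.5, 10.20 and 9.90 at E10.5, 8.77 and 9.12 at E11.5, 7.18 and 6.77 in E12.5 females, 6.67 and 6.24 in males of that age, 4.83 and 5.03 in E13.5 females, and 5.36 and 5.11 in males of that age. No neighbouring groups overlapped in the order of levels, which ran from E10.5 through E9.5, E11.5, E12.5 females, then males, and E13.5 males down to E13.5 females.

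The Stat4 signal of E10.5 exceeded that of E11.5 by 2.15-fold, of E12.5 females by 8.43-fold and of E12.5 males by 12.1-fold. It exceeded that of E13.5 females by 34.8-fold and of E13.5 males by 28.1-fold. These are ratios of signal, and the E13.5 signals lie close to the median of the table. Among the 18193 genes, ordered by log2 change from the most negative, Stat4 stood in place 2 for E13.5 females against E10.5 and in place 9 for E13.5 males against E10.5. The difference between E10.5 and E11.5 was smaller and put it in place 524. Since Stat4 was selected on its fall, these places follow from that choice and serve only as description. Males were lower than females by 0.52 at E12.5 and higher by 0.31 at E13.5. With only 1 probe set, no second probe set of Stat4 could be set beside these values.

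Markers of other cells also changed over these days. The summed signal of 6 measured erythroid markers was 13.68 to 14.59 (log2) at E9.5, 11.34 to 11.71 at E10.5, 7.81 to 8.77 at E11.5 and 6.79 to 8.97 in the later groups. Of 8 endothelial markers, 5 were lower in E13.5 females and 3 in males of that age than at E10.5 at an adjusted p under 0.05 (limma). Of all genes, 6.39% were lower in females and 5.23% in males. Their summed signal was 9.24 to 9.80 at E10.5, 9.08 to 9.13 at E11.5, 8.76 to 9.30 at E12.5, 8.13 to 8.23 in E13.5 females and 8.96 to 9.21 in E13.5 males. The 10 gonadal somatic markers summed to 9.48 to 9.95 at E10.5, 7.91 to 7.92 in E13.5 females and 8.27 to 8.65 in E13.5 males. The part of these cells in the course of Stat4 was not tested. Leukocytes are a known site of Stat4 expression, and 9 of 11 listed leukocyte markers were measured. Their summed signal was 8.41 to 9.14 at E10.5 and 8.15 to 8.35 at E13.5, and their median change between these ages was -0.32 in females and -0.60 in males, beside 0.08 and 0.07 over all genes. The pan-leukocyte gene Ptprc read 1.65 to 3.85 over the arrays and the T cell gene Cd3e 2.13 to 4.10, dim on every array. Other markers of the list were brighter: 5 of the 9 had a mean above the table median at E10.5, among them Laptm5 at 7.14 and Coro1a at 6.65, beside 4 of 9 in E13.5 females and 3 of 9 in males of that age. The part of leukocytes was not tested either. Only the erythroid Hba-a1 among the defining markers of these lists was listed at 0 on any array.

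Some genes of other lists also differed between E10.5 and E13.5 or between the sexes, at an adjusted p under 0.05 (limma). Of all genes, 11.5% were higher and 6.39% lower in E13.5 females than at E10.5. In E13.5 males these shares were 7.52% and 5.23%. Between the sexes at E13.5, 4.18% of all genes were higher and 5.99% lower in males. Of 7 male supporting cell markers, 2 were higher in E13.5 males than at E10.5 and than in E13.5 females: Cst9, by 7.41 and 6.44, and Ptgds, by 3.85 and 3.41. Of 6 female supporting cell markers, 2 were higher in E13.5 females than at E10.5, and 3 were lower in E13.5 males than in E13.5 females, with Irx3 at -4.11. Of 6 gut markers, 3 were higher in E13.5 females and 1 lower in E13.5 males than at E10.5, with Cdx2 at 2.09 and -4.04. Of 9 immediate early genes, 2 were lower at E13.5 than at E10.5 in each sex, with Ier3 at -3.92 in females and -2.44 in males. The summed signal of the male supporting markers was 9.01 to 9.64 at E10.5, 8.78 to 9.08 in E13.5 females and 9.86 to 10.20 in E13.5 males, and that of the gut markers 7.98 to 8.12, 8.96 to 9.0 and 7.53 to 7.63. The sums of the female supporting markers were 8.0 to 8.11, 8.80 to 8.81 and 7.93 to 8.14, and those of the immediate early genes 12.41 to 12.46, 11.73 to 12.01 and 11.58 to 11.94. Their part in the differences of the members and of the pathway genes was not tested.

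The genes whose course over the 12 arrays from E10.5 on was most like that of Stat4 were Dcp2, which encodes an mRNA decapping enzyme, Car12, which encodes a carbonic anhydrase, and 2610318N02Rik. Their Pearson correlations with Stat4 were 0.98 for Dcp2, 0.97 for Car12 and 0.97 for 2610318N02Rik, the highest among 12091 genes above the table median. These correlations describe 12 arrays that share processing and age groups. The Dcp2 mean went from 11.38 at E10.5 to 9.91 in E13.5 females and 10.01 in males of that age, a smaller change than that of Stat4. The Car12 mean went from 8.76 at E10.5 to 5.73 in E13.5 females and 5.49 in males of that age.

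**Figure D3:**
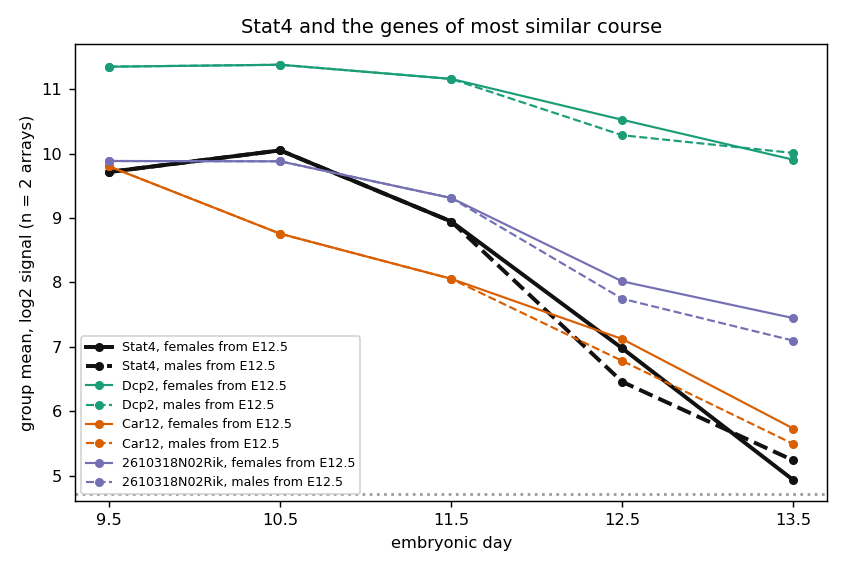
Group means of log2 signal (vertical axis, 2 arrays each) by embryonic day (horizontal axis) for Stat4 and the 3 genes most correlated with it, with solid lines for females and dashed lines for males from E12.5 on and the table median as a dotted line. All 4 genes are lower at E13.5 than at E10.5, and Stat4 covers the widest range, 10.05 to 4.93 in group means.

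Stat2, which joins Irf9 in the transcription factor complex of type I interferon signalling, was lowest at E9.5. It read 4.61 and 4.78 at E9.5, 5.61 and 5.77 at E10.5, 5.71 and 5.73 at E11.5, 5.49 and 5.73 in E12.5 females, 5.24 and 5.56 in males of that age, 5.64 and 5.82 in E13.5 females, and 6.20 and 4.96 in males of that age. Both E9.5 arrays lay below all others, and from E10.5 on every group overlapped its neighbour in the order of levels. The second Stat2 probe set, dim on all 14 arrays, did not share the low E9.5 level: its means were 3.43 at E9.5 and 3.39 at E10.5, and its lowest was 2.81 in E13.5 males. E10.5 was 1.0 above E9.5 (95% interval 0.23 to 1.76, limma, adjusted p = 0.226), a comparison that also spans strain and preparation.

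Stat5a and Stat5b encode closely related factors that act downstream of growth hormone, prolactin and several cytokines. Over all 7 groups, Stat5a was the steadiest member in its brightest probe set, with group means within 0.37 and arrays between 5.35 and 5.99. All neighbouring groups in its order of levels overlapped. For Stat5a in E13.5 females against E10.5 the 95% interval ran from -0.93 to 0.20, so a fall of up to 0.93 is not excluded by the spread. From E10.5 on, the group means of Stat2 spanned slightly less, 0.33. The second Stat5a probe set, dim on 12 of 14 arrays, had group means spanning 0.97. It read 4.61 and 4.83 at E9.5 and 3.99 and 3.78 at E10.5, a comparison that also spans strain and preparation.

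Stat5b ranged over more than any tested member, with group means from 3.82 to 6.20. It read 5.99 and 4.90 at E9.5, 4.47 and 5.91 at E10.5, 3.63 and 4.0 at E11.5, 4.96 and 4.97 in E12.5 females, 3.70 and 4.84 in males of that age, 6.38 and 6.02 in E13.5 females, and 4.66 and 4.79 in males of that age. E13.5 females were the highest group and both their arrays exceeded all others. E13.5 males were 1.48 below E13.5 females (SE 0.48, 95% interval -2.54 to -0.41, limma, adjusted p = 0.0841). This difference passed when only the 4 arrays compared were fitted (adjusted p = 0.0411). E13.5 females exceeded E10.5 by 1.01, which did not pass (limma, adjusted p = 0.197). The E10.5 replicates, 4.47 and 5.91, were 1.44 apart, so this excess depended on which of them was kept. Without replicate 2, the higher E10.5 array was lost and the excess was 1.73. The second Stat5b probe set was dim on 13 of 14 arrays and its replicates scattered, at 3.02 and 4.82 in E13.5 females. The genes most like Stat5b over the 12 arrays were Mfhas1 (r = 0.94), Rnf144a (r = 0.94) and Sh2b3 (r = 0.93), an adaptor of cytokine receptor signalling.

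Stat6, the STAT of interleukin 4 and interleukin 13 signalling, was lowest at E12.5 and higher again at E13.5 in both sexes. It read 6.10 and 5.11 at E9.5, 5.52 and 6.03 at E10.5, 5.20 and 5.20 at E11.5, 4.71 and 3.84 in E12.5 females, 4.37 and 4.77 in males of that age, 5.29 and 4.81 in E13.5 females, and 5.66 and 5.91 in males of that age. In each sex both E13.5 arrays exceeded both E12.5 arrays. In females the difference was 0.78 (95% interval 0 to 1.55, limma, adjusted p = 0.334), and in the second Stat6 probe set it was 0.88, also without overlap. In males the difference was 1.22 (SE 0.35, 95% interval 0.44 to 1.99) and did not pass (limma, adjusted p = 0.121). The second Stat6 probe set did not share the male difference, which was -0.18 there, with 4.25 and 4.73 in E13.5 males and 4.18 and 5.15 in E12.5 males. Over the 12 arrays, D430042O09Rik (r = 0.90), Bgn (r = 0.90) and Ak3 (r = 0.89) were most like Stat6.

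In the limma model over all genes, 0 of the 7 tested members passed in any of the 11 comparisons. None of their 19 probe sets passed in limma when each was tested singly, with 1 to 4 per comparison at an unadjusted p under 0.05. Of all 34945 probe sets, 4426 passed for E13.5 females against E10.5, 3143 for E13.5 males against E10.5 and 2241 between the sexes at E13.5. In the other comparisons 0 to 450 passed, so 0 of 19 says little there. The share of all probe sets at the unadjusted p is not given. The share of all genes that passed was 1.06% for E10.5 against E9.5, 0.077% for E11.5 against E10.5, 1.86% for E12.5 females against E11.5 and 1.01% for E12.5 males against E11.5. It was 1.87% from E12.5 to E13.5 in females, 2.09% in males, 2.39% between the sexes at E12.5, and 0.011% for the change of the sex difference. At these shares a count of 0 among 7 genes says little. The shares were larger for E13.5 females against E10.5 (17.9%, with 11.5% higher and 6.39% lower), E13.5 males against E10.5 (12.7%, with 7.52% higher and 5.23% lower) and males against females at E13.5 (10.2%, with 4.18% higher and 5.99% lower). With only 7 genes, a count of 0 says little at these larger shares too.

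At an unadjusted p under 0.05, members numbered 3 of 7 for E13.5 females against E10.5 (Stat3, Il6st and Lifr), against 29% of all genes. For E13.5 males against E10.5 only Il6st did so, against 25% of all genes, and between the sexes at E13.5 only Stat5b, against 22.3% of all genes. Between the sexes at E12.5 the count was 0, against 12.8% of all genes. Stat2 and Il6st did so for E10.5 against E9.5 (16.1% of all genes) and Stat5b for E11.5 against E10.5 (7.07%). Stat5b and Stat6 did so for E12.5 females against E11.5 (13.4% of all genes) and Il6st for E12.5 males against E11.5 (9.37%). From E12.5 to E13.5 these were Stat5b and Il6st in females (15% of all genes) and Stat6 in males (14.1%), and for the change of the sex difference Lifr (7.42%). The median size of change from E10.5 to E13.5 among the 7 was 0.63 in females, beside 0.46 over all genes, and 0.18 in males, beside 0.43 over all genes. Comparisons that share the E10.5 arrays are not independent of each other.

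**Figure D4:**
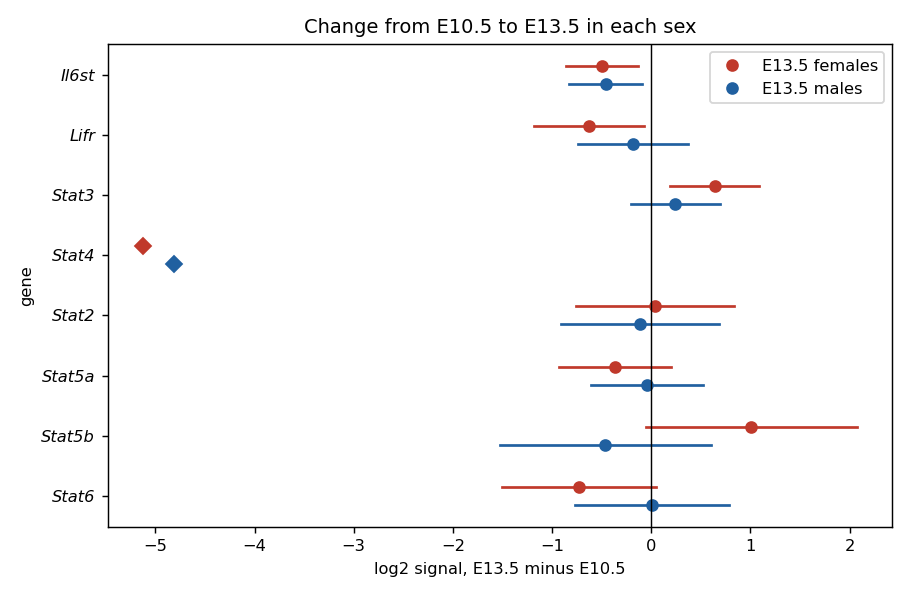
Log2 change from E10.5 to E13.5 (horizontal axis) of the 8 members (vertical axis) in females and males, with points for the fitted difference and bars for its 95% interval. Stat4, at -5.12 in females and -4.82 in males, was selected on its fall and is drawn without a test, and the other 7 members did not pass in either sex.

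The pathway around the family was described by 72 other measured genes in lists of ligands, receptors, kinases, inhibitors and response genes. From E10.5 to E13.5, 14 of 72 passed in females (19.4%, 5 higher and 9 lower) and 14 in males (19.4%, 7 higher and 7 lower), beside the 17.9% and 12.7% of all genes given above. Between the sexes at E13.5, 7 passed (9.72%, beside 10.2% of all genes). In limma's test 0 passed for E10.5 against E9.5 (13 at an unadjusted p under 0.05), E11.5 against E10.5 (3), E12.5 females against E11.5 (11), E12.5 males against E11.5 (6), the sex difference at E12.5 (5) and its change to E13.5 (11). The shares of all genes at that unadjusted p, in the same order, were 16.1%, 7.07%, 13.4%, 9.37%, 12.8% and 7.42%. From E12.5 to E13.5 the count was 1 in females and 3 in males. When only the compared arrays were fitted, 3 genes passed from E10.5 to E13.5 in females (Ctf1, Ebi3 and Jak2) and 4 in males (Ebi3, Ptpn6, Gbx2 and Tfcp2l1). The share of all genes passing in those smaller fits is not given, so the lower counts are not read as a result about the pathway. For the counts by list that follow, 11.5% of all genes were higher and 6.39% lower from E10.5 to E13.5 in females. In males these shares were 7.52% and 5.23%. Each list is short, and its count is not read as a result about the list.

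Of the 7 measured gp130 ligands, 2 fell in females, and 1 rose and 1 fell in males. Ebi3, a subunit shared by dimeric cytokines of the interleukin 12 family, averaged 7.59 at E10.5, 5.16 in E13.5 females and 4.63 in males of that age. It fell by 2.43 in females (limma, adjusted p = 0.000232) and by 2.96 in males (adjusted p = 8.05e-05). Ctf1, which encodes cardiotrophin 1, fell by 1.67 in females (adjusted p = 0.00183). Lif itself averaged 5.02 at E10.5, 4.62 in E13.5 females and 4.43 in males of that age, and Il6 was dim on all arrays, at 0.50 to 2.76. None of the 4 measured partner receptors of gp130, Il6ra, Cntfr, Osmr and Il27ra, passed in limma's test in either sex, and their median change was 0.40 in females and 0.33 in males.

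Among the 15 other receptors, 2 rose in females and 1 in males, near the shares of all genes that rose (11.5% and 7.52%). Il13ra1, a receptor chain for interleukin 13 that signals to Stat6, averaged 4.56 at E10.5, 6.23 in E13.5 females and 6.83 in males of that age. The rise was 1.68 in females (limma, adjusted p = 0.0055) and 2.27 in males (adjusted p = 0.00126). The chains of the interleukin 12 receptor, upstream of Stat4, were at or near dim levels: group means of Il12rb1 lay between 3.41 and 4.41 and those of Il12rb2 between 4.42 and 4.94.

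All 4 Janus kinases were measured: 2 rose in females, and 1 rose and 1 fell in males. Jak1, a kinase used by gp130, averaged 9.41 at E10.5, 11.10 in E13.5 females and 10.74 in males of that age. It rose by 1.69 in females (limma, adjusted p = 0.00141) and by 1.33 in males (adjusted p = 0.00786). Neither Jak1 call held with the mean of all its probe sets (0.79 in females, adjusted p = 0.212, and 0.88 in males, adjusted p = 0.192), and the male call was lost without replicate 1 of E13.5 males (1.17, adjusted p = 0.0729). Jak2 rose by 1.58 in females (adjusted p = 0.00164), and E13.5 males were 1.15 below E13.5 females (adjusted p = 0.0167). That sex difference did not pass without replicate 1 of E13.5 females (-0.92, adjusted p = 0.138), without male replicate 1 (-1.24, adjusted p = 0.0665) or without male replicate 2 (-1.05, adjusted p = 0.115). Jak3, the kinase of lymphoid cytokine receptors, fell by 2.13 in males from a mean of 8.69 to 6.56 (adjusted p = 0.0082). Without replicate 1 of E13.5 males that fall was 1.90 and did not pass, with an adjusted p of 0.0716.

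Of 16 inhibitors and phosphatases, 1 rose and 2 fell in females, and 3 rose and 1 fell in males. Ptpn6 encodes the phosphatase SHP-1. It averaged 10.68 at E10.5, 9.59 in E13.5 females and 8.11 in males of that age. It fell by 2.57 in males (limma, adjusted p = 0.000102), and E13.5 males were 1.48 below E13.5 females (adjusted p = 0.00421). Socs2, a feedback inhibitor best known for growth hormone and STAT5 signalling, fell by 1.17 in females (adjusted p = 0.000773). E13.5 males exceeded E13.5 females in Socs2 by 0.95 (adjusted p = 0.00495), which did not pass without replicate 1 of E13.5 males (0.82, adjusted p = 0.0561). With the mean of all its probe sets Socs2 passed in neither comparison (adjusted p = 0.0517 and 0.393). Socs3, the feedback inhibitor of gp130 and a target of STAT3, averaged 4.79 at E10.5, 4.09 in E13.5 females and 5.47 in males of that age, and passed in neither sex.

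Of 12 genes known to respond to STAT3, 2 fell in females, and 2 fell and 1 rose in males. Gbx2, a homeobox gene downstream of LIF in embryonic stem cells, averaged 7.40 at E10.5, 7.91 in E13.5 females and 4.95 in males of that age. It fell by 2.45 in males (limma, adjusted p = 0.0015), and E13.5 males were 2.97 below E13.5 females (adjusted p = 0.000623). Tfcp2l1, another pluripotency factor downstream of LIF, fell by 1.45 in females (adjusted p = 0.00402) and by 2.18 in males (adjusted p = 0.000447). With the mean of all its probe sets the female difference turned to 0.17 (adjusted p = 0.847) and the male one was -0.84 (adjusted p = 0.236). Klf4, Klf5, Myc and Pim1 passed in neither sex.

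Of 15 interferon response genes, 3 fell in females and 2 in males. Oas1a, an antiviral enzyme gene, fell by 1.26 in females (limma, adjusted p = 0.00832) and by 1.33 in males (adjusted p = 0.00858). The Oas1a call in females was lost without replicate 2 of E10.5 (adjusted p = 0.0504) or of E13.5 females (adjusted p = 0.0535), and in males without replicate 2 of E13.5 males (adjusted p = 0.0729). Irf1, an interferon-induced transcription factor, was 1.13 higher in E13.5 males than in E13.5 females (adjusted p = 0.00181). Irf9, the partner of Stat2, averaged 7.34 at E10.5, 7.46 in E13.5 females and 6.16 in males of that age. The difference of Irf9 between the sexes at E13.5 was -1.30 (adjusted p = 0.0373), and without replicate 2 of E13.5 males it was -0.88 (adjusted p = 0.263).

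**Figure D5:**
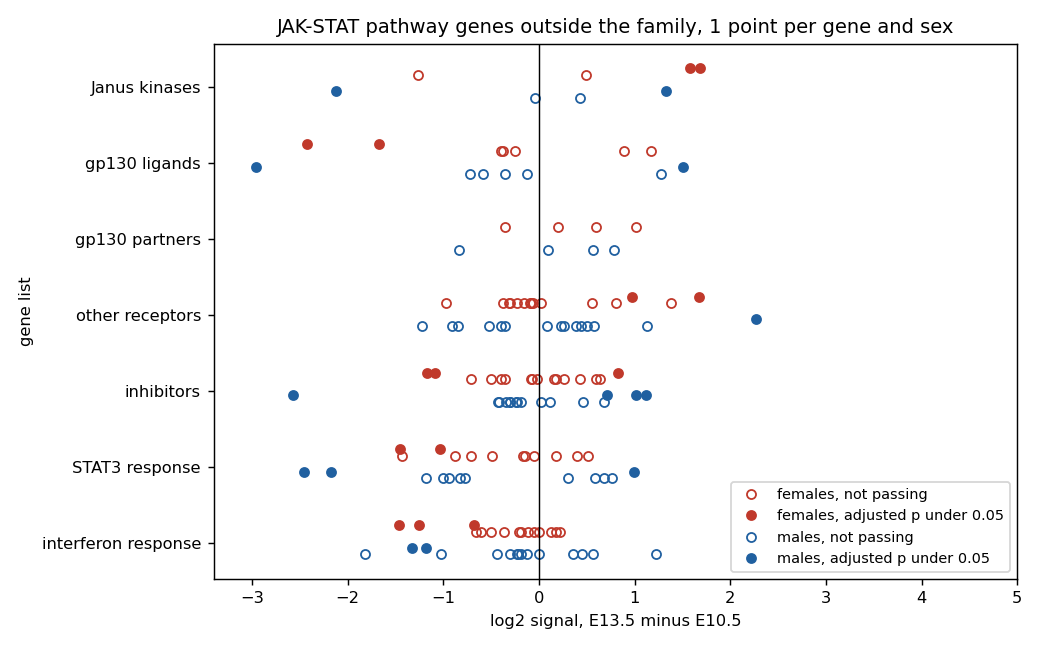
Log2 change from E10.5 to E13.5 (horizontal axis) of the 72 pathway genes outside the family, by list (vertical axis, Socs3 drawn in both of its lists), in females and males, with filled points, drawn slightly higher, for an adjusted p under 0.05. In each sex 14 genes passed, and every list has genes on both sides of 0 in at least 1 sex.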

How the data were processed

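The deposited table held log2 probe set signals of 14 arrays, normalized by the authors together with the E9.5 arrays. The software and the method of summarization are not named in the labels, and a range of 0 to 14.04 marks the scale as log2. Probe sets were named from the platform annotation: 34945 had 1 gene symbol, 932 several and 9160 none, and 64 controls were left out. Of those with 1 symbol, 34741 matched a RefSeq gene. For each of 18193 genes the probe set of highest mean was used.

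Linear models with 1 mean per group were fitted over all genes with limma 3.58.1 in R 4.3.3, with an intensity trend. The 12 arrays of E10.5 or later gave 10 comparisons, and E10.5 was compared with E9.5 in a fit of all 14 arrays. The p-values are 2-sided, with Benjamini-Hochberg adjustment over all genes within a comparison. A gene passed under 0.05. Intervals are 95% intervals of the same model. The fit was tested on simulated data, with shifts larger than the median changes of the members, in genes brighter than the median gene. The outcome is not given here, and such a test does not measure how often smaller changes or dimmer genes would pass.

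The members and gene lists were chosen with earlier results of these data known. All members are named. Pathway genes are named from the up to 5 passing genes of largest change per list and comparison; Lif, Il6, Il12rb1, Il12rb2, Socs3, Klf4, Klf5, Myc, Pim1 and the gp130 partner receptors were named after their values were seen. The 3 genes most like a member were taken by Pearson correlation among genes above the table median, for members spanning at least 1 log2 unit. Some list genes are not analysed here. Promoter windows and gene order came from RefSeq. The alternatives were quantile normalization, centring on the median, a test without dim genes, the mean over a gene's probe sets, array weights, a floor at the 25th percentile, variances without the trend, the compared arrays alone, a replicate block and leaving out each array.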

Additional observations from a re-analysis of the deposited data

How the results depend on the processing

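The depth behind a signal is unknown, and dim probe sets limit what can be said of Stat2, Stat5b and Stat6. The Stat4 span of group means, 5.12, was 5.25 with quantile normalization and 5.20 with median centring, and ran from 4.97 to 5.27 when single arrays were left out, an alternative chosen after seeing the data like those on pathway genes. Replicate numbers were not treated as pairs in the main fits. Over 15 pairs of groups, deviations of same-numbered arrays correlated between -0.09 and 0.23. The 2 pairs over 0.1 were E10.5 with E11.5 (0.23) and E13.5 females with E13.5 males (0.21). A pairing within E13.5 was not tested, since the replicate block gives same-numbered arrays 1 shared shift over all ages. With the replicate block, 0 members passed in all 11 comparisons, and the pathway counts were 14 in females and 13 in males from E10.5 to E13.5.

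For members, the count of 0 became 1 (Il6st) with the floor for E13.5 against E12.5 in females and for E13.5 against E10.5 in males. For E13.5 females against E10.5 it became 2 with quantile normalization (Il6st and Lifr), with dim genes left out and with the floor (Stat3 and Il6st each time), 1 with median centring (Il6st), and 0 to 2 when single arrays were left out (2, Stat5b and Lifr, without replicate 2 of E10.5). For males against females at E13.5 it became 1 (Stat5b) with the compared arrays alone.

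For pathway genes from E10.5 to E13.5, the 14 passing in females became 3 with the compared arrays alone and 8 to 13 when single arrays were left out (8 without either E13.5 female array), and the 14 in males became 4 and 9 to 14 (9 without replicate 2 of E13.5 males). From E12.5 to E13.5, the 1 in females became 0 with the mean of all probe sets, no intensity trend or the compared arrays alone, 4 with array weights, and 0 when any single array was left out. The 3 in males became 1 with dim genes left out, 7 with array weights and 0 to 2 when single arrays were left out. Between the sexes at E13.5, the 7 became 4 to 5 when single arrays were left out. The female fall of Tfcp2l1 from E10.5 turned to 0.17 with the mean of all probe sets. The cause of these differences was not tested. The share of all genes passing under each alternative is not given. The changed counts of members and of pathway genes are therefore not read as results about these genes.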
